A study of Mus musculus with 23 samples.

Results

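The genes of mouse chromosome 17 that start outside the 33 to 38 Mb interval were followed in bone marrow-derived macrophages (BMDMs, macrophages grown in culture from marrow progenitors). Members were chosen by position and count alone: the gene's first listed chromosome is 17, its lowest start lies outside 33000000 to 38000000 in GRCm38, and it has at least 10 counts in 2 or more libraries. This gave 785 of the 18198 genes that passed the same count filter, out of 1917 chromosome 17 genes outside the interval in the table. The interval left out holds the H2 complex, and 203 of its genes passed. The chromosome itself was selected on its share of genes that differed between genotypes, so the counts of members that differ between knock-out and wild-type are given as a description. Of the members, 568 are protein-coding and 65 are processed pseudogenes, and 3 have no symbol.

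Mouse chromosome 17 carries the H2 complex, which is the mouse major histocompatibility complex, and near its centromere the t-complex, a stretch rich in duplicated gene families. Away from the H2 complex it holds the cluster of formyl peptide receptors (Fpr1, Fpr2, Fpr3) and the Trem cluster of myeloid receptors. It also holds Sod2, which encodes the mitochondrial superoxide dismutase, Tfeb, which encodes a transcription factor for lysosome and autophagy genes, and Epas1, which encodes the hypoxia-inducible factor subunit HIF-2 alpha.

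RNA-seq was run on 23 libraries of BMDMs in 8 groups, made of 2 genotypes at 4 times. Wild-type (WT) cells and cells labelled Selenow knock-out (KO), which are to lack selenoprotein W, were left untreated (0 h) or given bacterial lipopolysaccharide (LPS) at 100 ng/ml for 4, 8 or 24 h. Each group has 3 libraries, except KO at 24 h with 2, and libraries are numbered 1 to 12 (WT) and 13 to 23 (KO). Strain, sex, age and the number of animals are not given in the sources used here, so p-values measure the spread between these libraries, which may be technical. No untreated library has a later time, so LPS and time in culture cannot be told apart.

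Library totals ran from 39001456 to 41819953 read pairs counted to genes. All 7 macrophage markers listed were detected, with a summed level of 11710 CPM (counts scaled by library size) or more in every library, while none of the 5 T and NK cell markers and none of the 4 mast cell markers passed the filter. The 7 neutrophil markers summed to 5.25 to 114 CPM in WT and 16.3 to 175 CPM in KO, with every KO library above every WT library of its time. Selenow, on chromosome 7, stood at 32.6% to 63.9% of the WT mean of its time in 7 libraries labelled KO. In the other 4 (libraries 13, 16, 19 and 22) it stood at 82.3% to 102%, so their label is used here as given and the results below are also read library by library. Libraries 3, 6, 9, 12, 14, 17, 20 and 23 form a second set: across genes, the deviations of their WT and KO libraries from the group means correlated at 0.724 to 0.796 at each time. Below, a library-set term means a separate term for each time. The set was read from these data, so p-values from fits with that term only show how calls depend on the fit.

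Sequences of 5 members whose differences are described below are shown for reference. The long noncoding RNA AC166102.1 (GRCm38 chr17:24779703-24781984, plus strand) and the antisense RNA AC165951.1 (chr17:30920338-30963220, minus strand) had no count in any library labelled KO. AC165951.1 runs against Glp1r and Umodl1, which lie on the other strand. Their transcripts are 1170 and 4014 bases long in GENCODE release 21, and the first 240 bases of each, as the reference genome has them, are given 5′ to 3′ in lower case. In these 240 bases no stretch of 50 bases occurs in a transcript of another gene.
AC166102.1: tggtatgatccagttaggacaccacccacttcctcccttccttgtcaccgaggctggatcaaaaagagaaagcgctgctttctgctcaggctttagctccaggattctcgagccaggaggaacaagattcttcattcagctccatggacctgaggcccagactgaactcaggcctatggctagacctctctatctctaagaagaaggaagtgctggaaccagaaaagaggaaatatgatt
AC165951.1: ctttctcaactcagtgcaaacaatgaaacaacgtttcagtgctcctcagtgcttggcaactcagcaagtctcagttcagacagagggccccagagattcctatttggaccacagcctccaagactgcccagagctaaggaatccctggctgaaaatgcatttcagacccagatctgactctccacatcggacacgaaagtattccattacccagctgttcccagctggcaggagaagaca
The 250 bases before the start of 3 further members were taken from RefSeq (GRCm38.p6), which had an entry for 60 of the 90 members named by rule. For Epb41l3 RefSeq lists 3 starts, and the window before the first listed is shown. Which start these cells use was not tested. The 3 windows touch no annotated exon, which also holds for other named members not shown. Capitals mark matches on either strand to the GC box GGGCGG or the CCAAT box CCAAT. The windows were also searched for the TATA box TATAAA, the E-box CACGTG and the AP-1 site TGACTCA, and no match to these was found in the 3 windows.
Fgd2 (chr17:29360664-29360913, plus strand): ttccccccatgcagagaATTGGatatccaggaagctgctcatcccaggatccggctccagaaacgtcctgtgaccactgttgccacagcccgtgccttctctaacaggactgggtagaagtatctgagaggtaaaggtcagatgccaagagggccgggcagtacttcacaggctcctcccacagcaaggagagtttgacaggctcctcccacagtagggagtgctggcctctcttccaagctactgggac
Epb41l3 (chr17:69075427-69075676, plus strand): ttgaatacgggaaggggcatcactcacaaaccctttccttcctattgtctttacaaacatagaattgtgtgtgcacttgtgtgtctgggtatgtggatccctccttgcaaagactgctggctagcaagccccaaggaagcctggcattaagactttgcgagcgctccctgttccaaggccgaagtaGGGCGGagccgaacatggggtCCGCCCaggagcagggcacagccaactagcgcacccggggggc
Cdc42ep3 (chr17:79355092-79355341, minus strand): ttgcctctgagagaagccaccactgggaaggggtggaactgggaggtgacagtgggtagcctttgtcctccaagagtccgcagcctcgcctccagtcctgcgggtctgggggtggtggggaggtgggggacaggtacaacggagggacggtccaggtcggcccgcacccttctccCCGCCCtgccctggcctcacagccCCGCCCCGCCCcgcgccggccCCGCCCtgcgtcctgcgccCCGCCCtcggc
Over all 32851 RefSeq windows of that length, 32.7% hold the GC box, 33.8% the CCAAT box, 12.4% the TATA box, 6.02% the E-box and 4.46% the AP-1 site. Those windows can include several of 1 gene, while for members only the first listed was used. Among members with a window, the GC box was in 46.5% of the 71 called higher, in 56.9% of the 51 called lower and in 58.1% of all 497. The Fgd2 window holds 1 CCAAT box, the Epb41l3 window 2 GC boxes and the Cdc42ep3 window 5.

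Averaged over the 4 times, 181 of the 785 members were called between KO and WT, 94 higher and 87 lower in libraries labelled KO. Called means an adjusted p under 0.05 in edgeR's quasi-likelihood test with Benjamini-Hochberg adjustment over all genes. That is 23.1% of the members, against 6.23% of all genes and 5.43% of the 16621 genes on the other autosomes. Between single autosomes the share called ran from 2.5% on chromosome 8 to 8.79% on chromosome 3. Within the left-out interval it was 12.3%. Since the chromosome was picked for this share, the gap is described and not tested. The share of members called was 23.4%, 23.3%, 22.1% and 25.4% at mean levels under 1, from 1 to 10, from 10 to 100 and from 100 CPM, so it differed little with expression level. It was 23.4% among protein-coding members and 23.3% among pseudogenes. Members that share an exon with another tested gene, whose reads were then counted for both, were called in 22.9% of cases and the others in 23.2%.

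**Figure D1:**
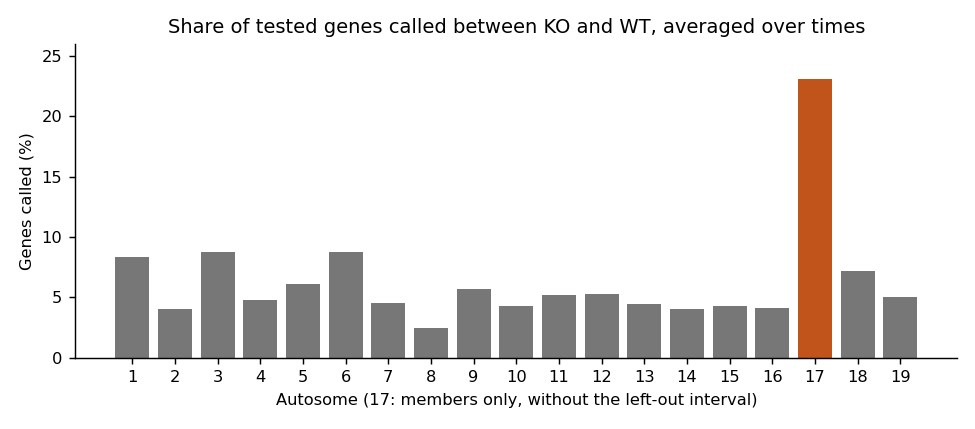
Percent of tested genes called between KO and WT averaged over the 4 times (adjusted p under 0.05), by autosome; the bar for chromosome 17 holds the members only. The members reach 23.1%, and the next highest bar is chromosome 3 at 8.79%.

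Called members were found in 16 of the 19 windows of 5 Mb, and the 3 without one held 2 to 8 members. In 5 Mb windows of 20 or more members, the share called was highest at 75 to 80 Mb, with 12 of 27 (44.4%), and at 5 to 10 Mb, with 21 of 49 (42.9%). It was lowest at 80 to 85 Mb, with 4 of 35 (11.4%), and at 55 to 60 Mb, with 8 of 66 (12.1%). Both directions occurred side by side. Of 160 consecutive pairs of called members that share no exon, 81 (50.6%) had the same direction. At the edges of the left-out interval no member was called in the fit without a library-set term: the average log2 difference was 0.17 ± 0.13 (SE) for Zfp472 and 0.15 ± 0.08 for Zfp952, the last 2 zinc-finger genes before 33 Mb. After 38 Mb the first members were the ribosomal RNA locus CT010467.1 (0.46 ± 0.20) and an unnamed gene that shares an exon with it (0.06 ± 0.10). With a library-set term added, Zfp472 and Zfp952 were called (adjusted p = 0.0421 and 0.0371 by edgeR). Within the first library set alone CT010467.1 was called (0.93, adjusted p = 0.0417), and within the second it stood at -0.20. Just inside the interval stand Zfp763 (0.03 ± 0.16) and Gm7335 (-0.02 ± 0.31). At the count limit, 28 members had 10 counts in exactly 2 libraries, with a mean of at most 0.158 CPM, and 24 genes left out had them in 1 library.

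**Figure D2:**
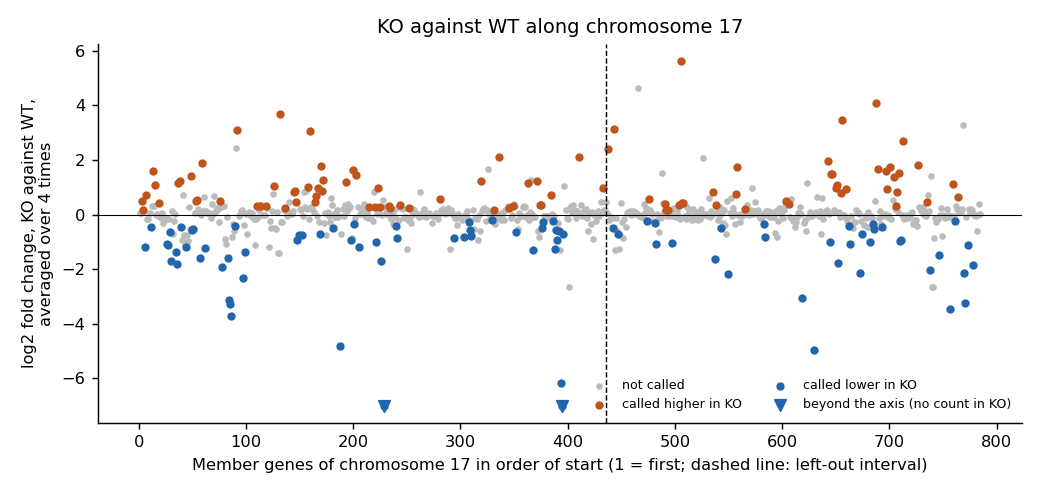
Log2 fold change of KO against WT averaged over times (y) for the 785 members in order of start (x); coloured points are called, the dashed line is the left-out interval, and triangles are 2 loci without a count in KO, drawn at the axis limit of -7. Orange (higher) and blue (lower) points lie mixed along most of the chromosome.

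At single times, 62 members were called at 0 h (32 higher), 65 at 4 h (30 higher), 78 at 8 h (45 higher) and 40 at 24 h (21 higher). These are 7.90%, 8.28%, 9.94% and 5.10% of the members, beside 1.51%, 1.23%, 2.18% and 1.18% of all genes. The times share no library, but the number of animals is not given. The second library set and the KO libraries with near-WT Selenow recur at each time, so the times may not be independent. Leaving out 1 library moved 3 of these counts by over 1.5 times: at 0 h to 38 without KO library 13 and to 35 without KO library 15, at 8 h to 44 without WT library 7 and to 45 without KO library 19, and at 24 h to 26 without KO library 22. Of the 62 members called at 0 h, 57 (91.9%) kept the sign of their difference at 4, 8 and 24 h, and of the 195 genes of other autosomes called at 0 h, 146 (74.9%) did. Signed by the direction at 0 h, the median log2 difference of these 62 members was 1.28 at 4 h, 1.10 at 8 h and 1.23 at 24 h. For the genes of other autosomes it was 0.86, 1.07 and 1. For calls made at 4 h the shares that kept their sign lay closer, at 58 of 65 members (89.2%) and 126 of 146 genes of other autosomes (86.3%). Signed by the direction at 4 h, the medians at 0, 8 and 24 h were 1.07, 1.14 and 1.02 for the members and 1.41, 1.56 and 1.39 for the other genes. Of the 181 members called on average, 164 had the same sign at all 4 times and the other 17 at 3 times. The average is made of these same 4 times, so this agreement follows in part from the choice of members.

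The members called at 0 h were also read in each later library, as the median signed difference from the WT libraries of that time on the log2(CPM + 0.5) scale. In KO libraries 16, 19 and 22, where Selenow was near its WT level, it was 0.62 to 0.78, and 93.5% to 98.4% of the 62 members lay on the KO side. In the other 5 KO libraries it was 0.68 to 0.82, with 90.3% to 95.2% of members. The 2 ranges overlap. The 195 genes of other autosomes called at 0 h lay on the KO side for 93.8%, 84.6% and 78.5% in libraries 16, 19 and 22 and for 82.1% to 91.3% in the other 5. In the same way, the members called at 8 h lay on the KO side at 0 h for 88.2% in library 13 and for 85.5% and 89.5% in libraries 14 and 15. Fitted within each library set alone, 60 of the 181 members called on average were called in both sets, beside 220 of 902 genes of other autosomes. Both groups of genes were chosen on the fit of the 2 sets together, so these counts are a description and not a replication.

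A total of 20 members were called at each of the 4 times in 1 direction, 10 higher and 10 lower, which is 2.55% of members beside 0.489% of all genes. Without KO libraries 13, 16, 19 and 22 the count was 11, and with a term for the library set it was 49. The share of other genes was not counted under these settings. The 20 members are Dynlt1b, 9030025P20Rik, AC166102.1, AC174471.1, AC165951.5, AC165951.1, Abcc10, Gm5815, AC154457.3 and Epas1 on the lower side. On the higher side they are Zfp40, Zfp213, Atp6v0c, Rnps1, Rps2, Guca1b, Gm4705, Gm26510, Gm6548 and Sult6b1. In 49 members the KO and WT libraries did not overlap at any of the 4 times, 28 on the higher and 21 on the lower side, which is 6.24% beside 1.27% of all genes.

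**Figure D3:**
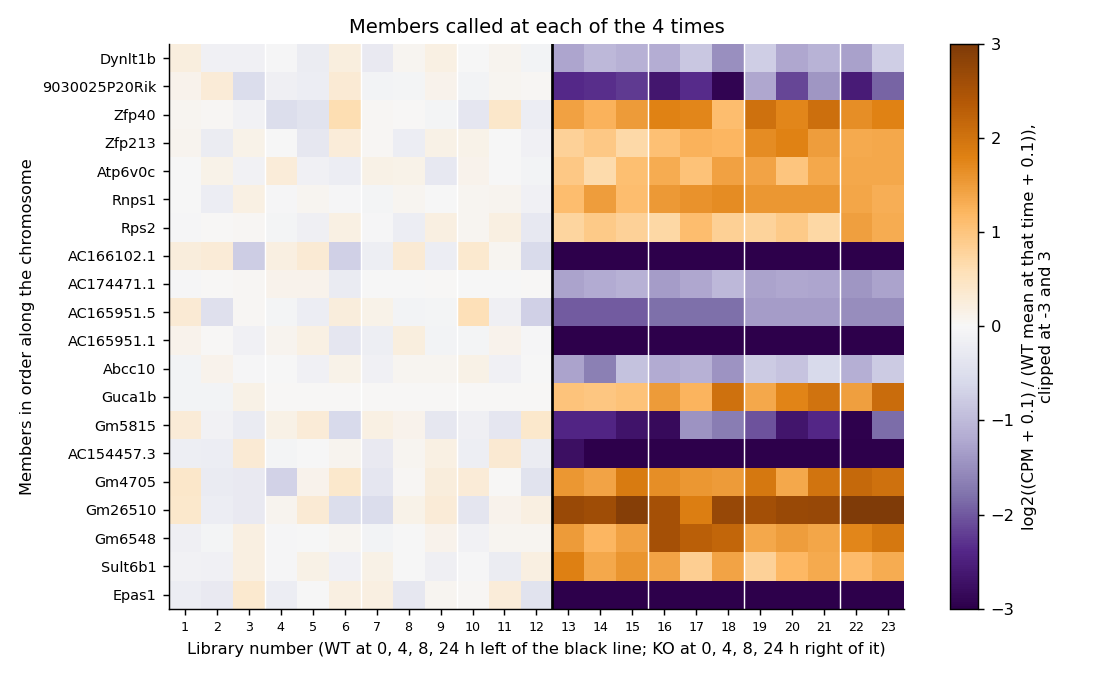
Level of the 20 members called at each time (rows, in order along the chromosome) in the 23 libraries (columns), as log2 of CPM + 0.1 over the WT mean of the same time + 0.1, clipped at -3 and 3. Each row keeps 1 colour across the 11 KO libraries, libraries 13, 16, 19 and 22 included.

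Among transcription regulators, Epas1 (chr17:86753700-86833410, plus strand) was lower in KO at every time. At 0 h it stood at 52.7, 50.3 and 78.2 CPM in WT and at 5.49, 6.01 and 5.88 CPM in KO. At 4 h it stood at 30.4, 35.0 and 40.2 CPM in WT and at 2.96, 3 and 3.54 CPM in KO. Every KO library lay below every WT library of its time, also at 8 h (6.97 to 9.96 against 0.833 to 0.961 CPM) and at 24 h (7.04 to 11.3 against 0.375 and 1.01 CPM). The average log2 difference was -3.47 ± 0.14 (SE, adjusted p = 8.05e-13 by edgeR), and the level fell with LPS in both genotypes. Hmga1, which encodes an architectural chromatin protein, was higher in KO, with 31.3 to 57.1 CPM in WT and 87.6 to 106 CPM in KO at 0 h, and 131 to 209 against 274 and 334 CPM at 24 h (1.22 ± 0.13, adjusted p = 1.84e-06). Its groups did not overlap at any time, but 55.0% of the 50-base stretches of its transcripts also occur in its near-identical copy Hmga1b, so the split of reads between these copies is uncertain. Of the 22 transcription and RNA regulators tested, Epas1 and Hmga1 were the 2 that were called, and the median difference of the list was -0.04 beside 0.00 over all genes. The lists by role were chosen with earlier results of these data known. Counts called in them stand beside 23.1% of all members and 6.23% of all genes, and were not tested.

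Rnps1, Atp6v0c and Rps2, genes of RNA handling, the vacuolar proton pump and translation, were higher in KO and lie in the 20 to 25 Mb window, where 21 members were called higher and 12 lower. Rnps1, an RNA-binding splicing and exon junction protein, stood at 25, 21.7 and 28.5 CPM in WT and at 54.3, 70.3 and 54.0 CPM in KO at 0 h. At 8 h it stood at 18.9, 20.5 and 19.4 CPM in WT and at 57.8, 58.0 and 58.3 CPM in KO. The groups were far apart at every time (1.45 ± 0.06, adjusted p = 4.87e-13). Atp6v0c, the proteolipid subunit of the vacuolar proton pump, stood at 127, 139 and 118 CPM in WT and at 250, 204 and 272 CPM in KO at 0 h, and at 120 to 138 against 330 and 332 CPM at 24 h (1.21 ± 0.08, adjusted p = 2.91e-09). Rps2, a protein of the small ribosomal subunit, stood at 215, 220 and 224 CPM in WT and at 370, 418 and 386 CPM in KO at 0 h (0.98 ± 0.07, adjusted p = 6.81e-09). Of its 50-base stretches 43.0% occur elsewhere, mostly in Rps2-ps10, against 10.8% for both Rnps1 and Atp6v0c.

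**Figure D4:**
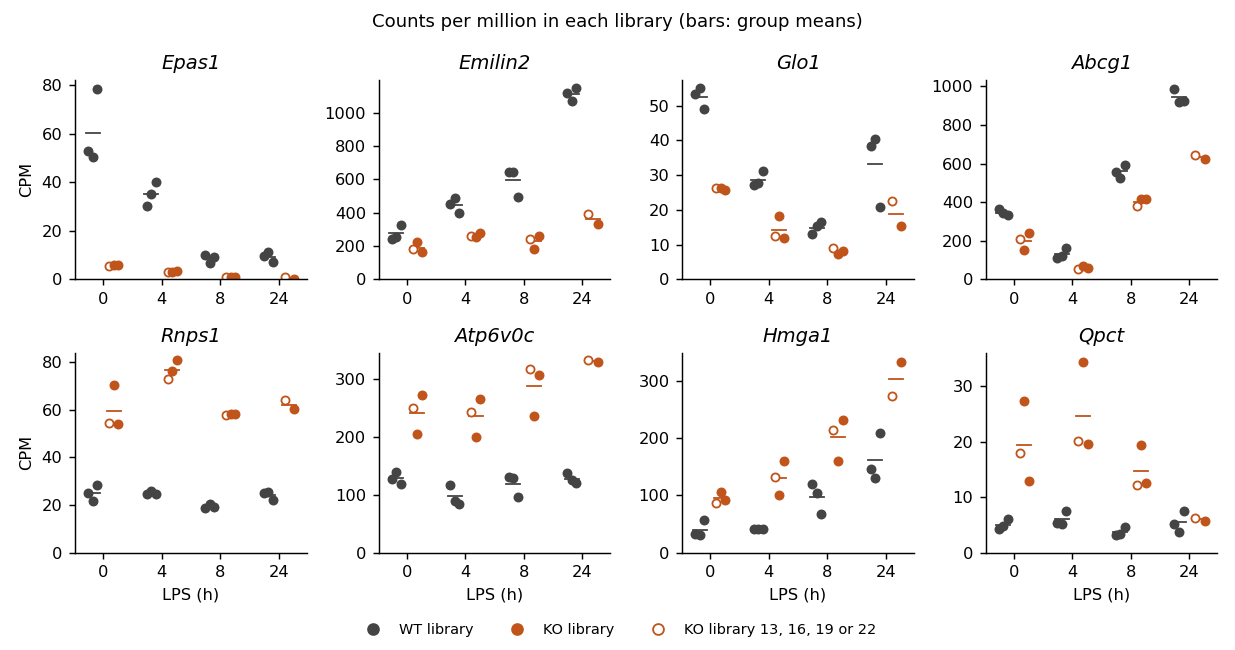
CPM of 8 members in every library by hours of LPS (x); points are libraries, short bars are group means, and open points are KO libraries 13, 16, 19 and 22. Epas1, Emilin2, Glo1 and Abcg1 lie lower and Rnps1, Atp6v0c and Hmga1 higher in KO; Qpct is higher at 0, 4 and 8 h; the groups of Qpct and Glo1 overlap at 24 h.

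Among surface receptors, ligands and secreted proteins, 5 of 22 members were higher and 3 lower, beside 23.1% of members and 6.23% of all genes called. Emilin2, a matrix glycoprotein, stood at 245, 254 and 329 CPM in WT and at 185, 224 and 166 CPM in KO at 0 h. At 24 h it stood at 1117, 1068 and 1148 CPM in WT and at 394 and 334 CPM in KO. It rose with LPS in WT, and the groups did not overlap at any time (-1.07 ± 0.08, adjusted p = 1.98e-08). Thbs2 (3.11 ± 0.70) and Ltbp1 (1.69 ± 0.37), both secreted matrix proteins, were called higher at mean levels of 0.281 and 0.418 CPM. Thbs2 was highest in KO libraries 14, 17, 20 and 23 of its time, at 0.681, 0.892, 2.23 and 0.868 CPM, while the 12 WT libraries lay at 0 to 0.148 CPM. The 5 stromal cell markers listed moved with it: they summed to 23.8, 33.7, 79.2 and 38.4 CPM in those 4 libraries, to 1.95 to 8.22 CPM in the other KO libraries and to 1.35 to 9.36 CPM in WT. KO libraries 15, 18 and 21 also lay above all WT libraries of their time. They summed to 4.78, 8.22 and 7.99 CPM, against 1.37 to 1.70, 1.35 to 3.575 and 3.32 to 6.09 CPM in WT. Library 13 was above as well, at 2.01 CPM, while libraries 16, 19 and 22 lay within the WT range of their time. Within the first library set, which holds none of libraries 14, 17, 20 and 23, Thbs2 stood at 1.08 and was not called (adjusted p = 0.116 by edgeR). Without library 23, Ltbp1 was no longer called (adjusted p = 0.0657 by edgeR). The myeloid receptor genes Treml1 (lower, -1.64 ± 0.35) and Adgre4 (higher) were called too, at mean levels of 0.870 and 0.301 CPM. Without library 23 Adgre4 was not called (adjusted p = 0.222 by edgeR), nor was it within the first or second library set alone (0.0717 and 0.740). Treml1 was not called by limma-voom (adjusted p = 0.0938) or by edgeR within the second set alone (0.154).

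Among redox and mitochondrial enzymes, 3 of 14 members were higher and 3 lower, beside 23.1% of members and 6.23% of all genes called. Glo1, the glyoxalase that detoxifies methylglyoxal, stood at 53.3, 55.0 and 49.0 CPM in WT and at 26.3, 26.3 and 25.6 CPM in KO at 0 h. At 8 h it stood at 13, 15.4 and 16.4 CPM in WT and at 8.98, 7.42 and 8.07 CPM in KO. The groups overlapped at 24 h, where WT library 12 had 20.7 and KO library 22 had 22.6 CPM (average -0.93 ± 0.11, adjusted p = 7.57e-06). Xdh, xanthine dehydrogenase, stood at 118 to 171 CPM in WT and 110 to 194 CPM in KO at 0 h, with overlap. After LPS its groups separated, at 535 to 752 against 181 to 340 CPM at 4 h and at 881 to 1045 against 383 to 490 CPM at 8 h (average -0.71 ± 0.12, adjusted p = 5.88e-04). The joint test of a difference between times did not call it (adjusted p = 0.222). With the library-set term, read from these data, its joint adjusted p was 1.19e-04, but joint calls on other autosomes rose from 0.0662% to 19.2%. Haao, an enzyme of the kynurenine pathway (-2.04 ± 0.30), was lower, and Cyp1b1, a cytochrome P450 (2.71 ± 0.47), was higher. Like Thbs2, Cyp1b1 was highest in KO libraries 14, 17, 20 and 23, at 1.18, 2.95, 4.25 and 1.5 CPM, the libraries with the highest stromal marker sums of their time. Within the first library set it stood at 1.24 and was not called (adjusted p = 0.0555). Sod2 was not called (0.27, adjusted p = 0.565).

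Among lipid genes, 1 of 11 members was higher and 3 were lower, beside 23.1% of members and 6.23% of all genes called. Abcg1, a cholesterol exporter, stood at 365, 343 and 332 CPM in WT and at 212, 154 and 240 CPM in KO at 0 h, and at 918 to 988 against 626 and 646 CPM at 24 h. The groups did not overlap at any time (-0.72 ± 0.08, adjusted p = 3.36e-06). The lipid transporter Abca3 (-0.36 ± 0.06) and the phosphatidate phosphatase Lpin2 (-0.42 ± 0.10) were lower, and the lipase maturation factor Lmf1 (0.23 ± 0.05) was higher. The median of the list was -0.13 beside 0.00 over all genes. Without library 23, Lpin2 was no longer called (adjusted p = 0.0509), and without KO libraries 13, 16, 19 and 22 Lmf1 was not (adjusted p = 0.0835).

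Among signalling genes, 3 of 19 members were higher and 2 lower, beside 23.1% of members and 6.23% of all genes called. Sik1, a salt-inducible kinase, stood at 0.824, 0.997 and 1.31 CPM in WT and at 16.8, 11 and 22.7 CPM in KO at 0 h. At 4 h it stood at 0.537 to 0.741 against 1.11 to 1.35 CPM, so that its groups were apart at both times by different amounts (average 2.11 ± 0.21, adjusted p = 7.12e-07). The joint test did not call a difference between times (adjusted p = 0.117). With the library-set term, where it called 19.2% of genes on other autosomes, the joint adjusted p of Sik1 was 5.24e-04. Dusp1, a phosphatase that switches off MAP kinases, was lower in KO (-0.87 ± 0.13, adjusted p = 1.40e-04). At 8 h it stood at 538, 446 and 539 CPM in WT and at 232, 303 and 236 CPM in KO, and its 4 h groups overlapped. The kinases Mapk14 (0.30 ± 0.08) and Pim1 (0.36 ± 0.10) were called higher by small amounts. Pim1 was no longer called without WT library 7 or 10 or KO library 15, 18 or 23, at adjusted p of 0.0503 to 0.0973. Mapk14 was no longer called without any 1 of 12 libraries (WT 3, 4, 5, 7, 9 or 10, KO 13, 15, 17, 19, 21 or 23), at adjusted p of 0.0512 to 0.1005, nor without KO libraries 13, 16, 19 and 22 together (0.124).

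In the cell cycle and DNA repair list, 1 of 16 members was higher and 1 lower, beside 23.1% of members and 6.23% of all genes called. They were the DNA polymerase Polh (0.57 ± 0.13) and the cyclin Ccnf (-0.95 ± 0.21). Without KO libraries 13, 16, 19 and 22 neither was called (adjusted p = 0.0848 and 0.0661), and within the second library set Ccnf stood at -0.44 (adjusted p = 0.118). In the protein turnover and mTOR list, 2 of 15 were higher and 3 lower, beside the same shares. Telo2, a scaffold that stabilises the mTOR kinase family, stood at 16.3 to 19.9 CPM in WT and 5.39 to 8.03 CPM in KO at 4 h, and at 24 h its groups overlapped (average -0.87 ± 0.11, adjusted p = 1.74e-05). The ubiquitin ligase subunit Cul7 (0.39 ± 0.10), the inhibitor of apoptosis protein Birc6 (-0.35 ± 0.10) and the kinase Rps6ka2 (-0.45 ± 0.13) were called at small differences. Without KO libraries 13, 16, 19 and 22 these 3 were not called (adjusted p = 0.131, 0.326 and 0.206). The call of Cul7 was also lost without library 23 (0.0577). That of Birc6 was lost without any 1 of 12 libraries (WT 3, 4, 5, 7 or 9, KO 13, 15, 16, 17, 19, 21 or 22), at adjusted p of 0.0531 to 0.105. That of Rps6ka2 was lost without any 1 of 15 (WT 3, 4, 6, 7, 9, 10 or 11, KO 13, 15, 16, 18, 19, 21, 22 or 23), at adjusted p of 0.0518 to 0.1255.

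Several of the largest differences described here lay in noncoding loci and pseudogenes, and others in protein-coding genes such as Epas1 and Guca1b. AC165951.1 had 200 to 360 counts in each of the 12 WT libraries (5.29 to 8.53 CPM) and none in the 11 KO libraries. With 3 counts over all KO libraries as the floor, it was at least 1050-fold lower. AC166102.1 had 27 to 701 counts in each WT library, with 6.20 to 12.9 CPM at 0 h and 0.669 to 1.39 CPM at 24 h, and none in KO, so it was at least 976-fold lower. Both were at 0 in libraries 13, 16, 19 and 22 too. On the other autosomes, 1 of 16621 genes had 10 or more counts in every library of 1 genotype and none in the other. AC165951.5, which starts at 30880471, had 114 counts in all WT libraries and none in KO (at least 35.4-fold lower). AC174471.1, which shares an exon with AC165951.1 and another with Btbd9, fell as well, from 16.4, 16.9 and 17.4 CPM in WT to 6.89, 7.39 and 7.70 CPM in KO at 0 h (-1.26 ± 0.05, adjusted p = 1.95e-12). These limits cover counting error only.

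Processed pseudogenes went both ways. Gm6548 stood at 6.97, 7.40 and 8.89 CPM in WT and at 22.2, 18 and 21.1 CPM in KO at 0 h (1.76 ± 0.06, adjusted p = 4.24e-14), and 24.1% of its 50-base stretches also occur in other genes, most often in Eef1a1. AC154457.3 had 854 counts over the WT libraries and 24 over the KO libraries (-4.95 ± 0.23), and 46.1% of its stretches occur in Mrps10. Gm5815 (-3.07 ± 0.30) shares 59.8% with Glcci1, and Gm4705 (1.98 ± 0.16) shares 63.3% with another pseudogene, Rpl34-ps1. The long noncoding RNA Gm26510 rose from 86 counts over the WT libraries to 888 over the KO libraries (3.48 ± 0.18), and 6.85% of its stretches occur elsewhere. Guca1b, a photoreceptor calcium sensor, had 1 count over all WT libraries and 87 over the KO libraries, a ratio of 93.4 with a 95% exact interval from 16.3 to 3730. That interval covers counting error only and not the spread between libraries. Counts of loci with near-identical copies are uncertain, since the table keeps only reads with a single alignment.

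The t-complex end of the chromosome held several members that share sequence with other loci. Dynlt1b, a dynein light chain, stood at 8.74, 6.85 and 6.90 CPM in WT and at 3.10, 3.64 and 3.40 CPM in KO at 0 h (-1.09 ± 0.10, adjusted p = 3.72e-07), but 83.2% of its stretches occur in other genes, mostly in its copy Dynlt1a. The radial spoke gene Rsph3a (1.42 ± 0.14) shares 54.4% with Rsph3b, Tmem181b-ps (-1.10 ± 0.11) shares 44.4% with Tmem181a, and Gm49721 (1.23 ± 0.12) shares 86.3% with Gm49673. The receptor gene Gpr31b was lower in KO, at 42.4, 43.3 and 66.8 CPM in WT and 14.1, 19.6 and 15.6 CPM in KO at 8 h, and shares 69.7% with the transcribed pseudogene AC166110.3, which was lower too (-1.92 ± 0.21 and -1.60 ± 0.27). 9030025P20Rik (-2.32 ± 0.14) shares 59.5% with Ermard. Stretches shared by near-identical copies and by overlapping annotated loci were counted alike. A read pair over an exon of 2 loci was counted for both, so the directions of these single loci are uncertain.

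Further protein-coding members lie far from that end. Qpct, the glutaminyl cyclase that forms pyroglutamate at peptide ends, stood at 18, 27.4 and 13 CPM in KO and at 4.31, 4.84 and 6.09 CPM in WT at 0 h. At 24 h its groups overlapped, at 6.34 and 5.67 against 3.73 to 7.48 CPM (average 1.52 ± 0.16, adjusted p = 1.59e-06). The joint test did not call a difference between times (adjusted p = 0.237). With the library-set term, where it called 19.2% of genes on other autosomes, the joint adjusted p of Qpct was 5.45e-04. Fgd2, an activator of the small GTPase Cdc42 whose promoter is printed above, was higher in KO at 8 h, at 15.6, 19.8 and 10.8 against 3.67, 4.28 and 7.5 CPM, and overlapped WT at 0 h and 4 h (average 1.23 ± 0.20, adjusted p = 4.69e-04). Epb41l3, a membrane cytoskeleton protein, stood at 5.53, 3.57 and 5.60 CPM in KO and at 1.10, 1.92 and 1.27 CPM in WT at 4 h (1.48 ± 0.18). The zinc-finger genes Zfp213 (1.28 ± 0.08) and Zfp40 (1.78 ± 0.14) were higher at every time, and 43.9% of the stretches of Zfp213 occur in Gm26695. The sulfotransferase gene Sult6b1 (1.39 ± 0.11) was higher, and the transporter gene Abcc10 (-1.07 ± 0.09) was lower.

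The response to LPS was not used to choose the chromosome. In WT cells 500 members (63.7%) were called at 4 h, 184 higher and 316 lower, beside 62.7% of all genes. At 8 h 499 members (63.6%) were called, 194 of them higher, beside 65.1% of all genes, and at 24 h 391 (49.8%), 187 of them higher, beside 54.8%. The members thus stood near the background in their share of calls. The median log2 change of all genes itself was -0.12 at 4 h, -0.10 at 8 h and 0.00 at 24 h, and that of the members -0.34, -0.24 and -0.05. Among surface receptors and secreted proteins, 12 of 22 rose and 3 fell at 4 h (median 1.23), and at 8 h 16 rose and 3 fell. Among cell cycle and DNA repair genes, 2 of 16 rose and 12 fell at 4 h (median -1.42). Among redox enzymes, 2 of 14 rose and 8 fell. Of the lipid genes, 7 of 11 fell and none rose at 4 h, while at 24 h 4 rose and 3 fell.

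Dll1, a Notch ligand, rose in WT from 0.0562, 0.129 and 0.0569 CPM at 0 h to 25.6, 26.4 and 35.5 CPM at 4 h, and was back at 0.112 to 1.36 CPM at 24 h (8.44 ± 0.75 at 4 h, adjusted p = 1.28e-08). In KO it stood at 23.5 to 28 CPM at 4 h. Has1, a hyaluronan synthase, went from 1 count over the 3 WT libraries at 0 h to 1237 at 4 h, a ratio of 1240 with a 95% exact interval from 221 to 48800. The interval covers counting error only and not the spread between libraries. Also among the 4 largest rises at 4 h were the phosphodiesterase Pde10a, from 4 to 581 counts, and the zinc-finger gene Zfp811, from 7 to 1670. Tfeb fell from 64.3, 64.1 and 43.8 CPM to 1.49, 1.03 and 1.38 CPM at 4 h (-5.46 ± 0.26, adjusted p = 1.31e-11), and recovered to 23.5 to 28.7 CPM at 24 h. In KO it went from 43.1 to 65.3 CPM at 0 h to 1.11 to 1.63 CPM at 4 h, so both genotypes overlapped. Neurl1b, a ubiquitin ligase that acts on Notch ligands (-4.94 ± 0.42), the mRNA decay factor Zfp36l2 (-4.53 ± 0.38) and AC132455.1 (-4.75 ± 0.41), which shares an exon with Zfp36l2, fell too.

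At 24 h the largest rises were in Pde10a (6.92 ± 1.38), in Fpr1 (6.58 ± 0.56) and in Gm5966, which the annotation lists under 2 identifiers with the same counts. Pde10a stood at 0.534, 0.536 and 9.1 CPM in WT at 24 h, and without library 12 its change was 4.26. Fpr1 went from 0.581, 0.812 and 0.626 CPM to 32.4, 42.9 and 119 CPM. It was also called higher in KO on average (1.03, adjusted p = 0.00923), with 254 to 310 CPM in KO and 111 to 141 CPM in WT at 8 h. Between genotypes the neutrophil marker sums went the same way. At 4 h they were 119 to 153 CPM in KO and 69.8 to 88.8 CPM in WT. At 8 h they were 62.95 to 89.1 against 47.8 to 62.92 CPM. With LPS they fell in WT, from 98.4 to 114 CPM at 0 h to 5.25 to 7.84 CPM at 24 h, while Fpr1 rose. The part of neutrophils in the KO difference of Fpr1 was not tested. The largest falls were in Rasgrp3, an activator of Ras (-7.66 ± 0.58), and in 3 genes of dividing cells, the cohesin protector Sgo1 (-6.30 ± 0.54), the Cdk1 inhibitory kinase Pkmyt1 (-5.93 ± 0.69) and the kinetochore gene Ndc80 (-5.24 ± 0.62).

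The WT and KO time courses share no library, though the second library set runs through both. Across the 785 members, the log2 changes in WT and in KO correlated at 0.913 at 4 h, 0.905 at 8 h and 0.859 at 24 h, and across genes of other autosomes at 0.952, 0.937 and 0.895, as a description over genes that are not independent. Of 418 members called in both genotypes at 4 h, 2 had opposite directions, as had 2 of 377 at 8 h and 1 of 253 at 24 h.

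**Figure D5:**
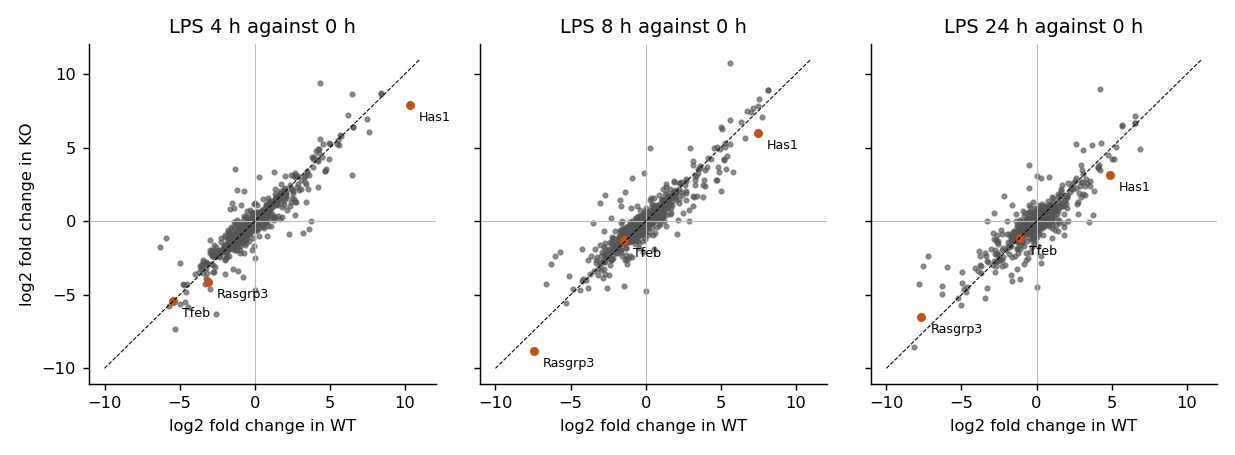
Log2 fold change of LPS against 0 h in WT (x) and in KO (y) for the 785 members at 4, 8 and 24 h; the dashed line marks equal change, and 3 genes are labelled. Most members lie near the line, with correlations of 0.913, 0.905 and 0.859.

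The joint test of whether the KO difference changes with time called 5 members (0.637%), beside 0.11% of all genes, and 2 of them are described here. The other 3 are not reported, and at least 1 of them has a lower joint p. With a term for the library set the joint test called 178 members (22.7%) beside 19.2% of genes on other autosomes, so its calls depend on that term. Cdc42ep3, an effector of Cdc42, stood at 37.4, 39.8 and 31.0 CPM in WT and at 31.9, 27.6 and 31.7 CPM in KO at 0 h. At 4 h it stood at 20.6, 17.1 and 12.4 CPM in WT and at 2.35, 4.19 and 2 CPM in KO, and at 24 h at 8.00 to 12.2 against 9.27 and 9.97 CPM. Its groups were thus apart at 4 h and 8 h and overlapped at 0 h and 24 h. The difference in its 4 h response was -2.30 ± 0.32 (adjusted p = 0.00501), and its joint adjusted p was 0.00749. Gm6548 stood at 11, 11.2 and 11.8 CPM in WT and at 65.9, 55.5 and 52.3 CPM in KO at 4 h, so that its difference was larger there than at 0 h, by 0.96 ± 0.16 (adjusted p = 0.0224, joint 0.0232). Without libraries 13, 16, 19 and 22 neither was called in the joint test, at adjusted p of 0.381 for Cdc42ep3 and 0.412 for Gm6548. Leaving out single libraries of 4 h or 8 h (WT 4 or 5, KO 16, 19 or 21) also put the joint adjusted p of Gm6548 at 0.0512 to 0.0819.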

How the data were processed

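Raw counts of read pairs per gene were deposited by the authors in 1 table of 55401 genes and 23 libraries. Per the file headers, featureCounts 2.0.1 summed paired reads over exons by Ensembl gene with the Ensembl release 101 annotation of GRCm38, without strand, and counted a pair for every gene it overlapped. The submitters' processing notes also name HISAT2, whose version is not given in the sources used here, and DESeq2. Genes were named through GENCODE release 21 (mouse).

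Genes with 10 counts in 2 or more libraries entered a single edgeR 4.0.16 fit (R 4.3.3) of 8 group means with TMM scaling. Quasi-likelihood F-tests compared KO with WT at each time and averaged over times, LPS with 0 h in WT, and the 3 interactions jointly, with Benjamini-Hochberg adjustment over 18198 genes at 0.05, two-sided. CPM values are TMM-scaled, and standard errors come from the unshrunk log2 fold change and F. Values of n are 3 libraries a group, or 2 for KO at 24 h. The fit was run on simulated counts drawn without a library-set effect, so that run does not show how the sets affect calls. Among pairs of libraries within a group, none were alike within sampling noise.

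The members, the lists by role and the library sets were chosen with earlier results of these data known. Named members are the 12 highest and 12 lowest called on average with a mean of at least 2 CPM, all called at each time, the 4 largest rises and falls with LPS at 4 and 24 h, up to 6 called in the joint test at that mean, up to 4 called members of each list and those beside the interval. A few of these members are not reported here. Alternatives were RLE and upper-quartile scaling, DESeq2 1.42.0, limma-voom (limma 3.58.1), 3 other count filters, a stricter adjusted p (0.01), testing for changes beyond 1.5-fold, fits of 2 groups, a library-set term, fits within a set, other windows and bounds, and leaving out libraries.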

Additional observations from a re-analysis of the deposited data

Results flagged for a closer look

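The KO against WT difference differed between times in 5 members by the joint test, of which 3 are not reported here. For Cdc42ep3 the joint edgeR test gave an adjusted p of 0.00749, with a log2 difference of -2.30 in the 4 h response. For Gm6548 it gave an adjusted p of 0.0232, with a log2 difference of 0.96 in the 4 h response. Both calls were lost without KO libraries 13, 16, 19 and 22. With groups of 2 or 3 libraries, no library was tested for standing apart within its group.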

How the results depend on the processing

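No paired analysis was possible because the replicate numbers run from 1 to 23 and no 2 groups share one. The term for the library set, which was read from the data and not from the labels, served as a block in its place. The counts of members called between KO and WT were 181 averaged over times, and 62, 65, 78 and 40 at 0, 4, 8 and 24 h. Against a fold of 1.5 they were 61, 26, 32, 33 and 25, with shares of 7.77%, 3.31%, 4.08%, 4.2% and 3.18%. Those of other autosomes were then 1.02%, 0.433%, 0.499%, 0.698% and 0.475%. With a term for the library set the counts were 333, 189, 143, 224 and 209. With that term the members' shares were 42.4%, 24.1%, 18.2%, 28.5% and 26.6%, and those of other autosomes 22.8%, 12.9%, 4.06%, 15.5% and 19.1%. Without KO libraries 13, 16, 19 and 22 the counts were 114, 26, 37, 35 and 21. The members' shares were then 14.5%, 3.31%, 4.71%, 4.46% and 2.68%, and those of other autosomes 2.73%, 0.487%, 0.59%, 0.782% and 0.421%. An additive fit in the second library set alone called 68 (8.66%, beside 2.58% of other autosomes). A fit of the 2 groups compared called 24 at 0 h, 42 at 4 h and 10 at 24 h. These are 3.06%, 5.35% and 1.27% of members, beside 0.397%, 0.62% and 0.193% of other autosomes. An adjusted p under 0.01 left 35 at 0 h and 41 at 8 h, beside 0.541% and 0.993% of other autosomes. For LPS in WT, the test against a fold of 1.5 called 325, 321 and 201 members at 4, 8 and 24 h in place of 500, 499 and 391. These are 41.4%, 40.9% and 25.6% of members, beside 41%, 41.4% and 29% of other autosomes. The joint interaction count of 5 became 178 with the library-set term (22.7%, beside 19.2% of other autosomes), 31 with DESeq2 (3.95%, beside 1.34% of other autosomes) and 2 without KO libraries 13, 16, 19 and 22. For these settings the cause was not tested, beyond the stricter thresholds and fewer libraries that some of them have by construction. Leaving out single libraries gave 151 to 181 averaged, 35 to 66 at 0 h, 50 to 69 at 4 h, 44 to 85 at 8 h and 26 to 44 at 24 h. For LPS it gave 451 to 508, 457 to 505 and 336 to 405, and for the joint interaction 4 to 7. Members called at each time numbered 16 to 22 in place of 20, and 10 against a fold of 1.5, 11 without KO libraries 13, 16, 19 and 22, 5 in fits of 2 groups and 49 with the library-set term. The share of other genes called at each time was not counted under these settings. The rRNA locus CT010467.1 (-0.20) and its unnamed neighbour (-0.10) changed sign in the second set alone, where neither was called, and in the first set CT010467.1 was called higher (0.93). Zfp472 and Zfp952 gained a call with the library-set term. At a count of 0, a library allows up to 0.0769 CPM, so lower levels were not detectable.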
